A study of Mus musculus with 6 samples.

Results

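The genes described here encode the nuclear-encoded subunits of the mitochondrial respiratory chain and ATP synthase. Membership was set by the gene symbol. Symbols that begin with Ndufa, Ndufb, Ndufc, Ndufs or Ndufv and a digit stood for complex I, and Sdha, Sdhb, Sdhc and Sdhd stood for complex II. Symbols that begin with Uqcr, and Cyc1, stood for complex III, those that begin with Cox and a digit between 4 and 8 stood for complex IV, and those that begin with Atp5 stood for complex V. Symbols holding -ps were left out. The count table of 33084 genes held 87 such genes, 84 of them protein coding and 3 annotated as processed pseudogenes (Cox6c2, Ndufa11b and Ndufs6b). Of the 87, 81 had enough counts to be tested, all protein coding: 37 of complex I, 4 of complex II, 9 of complex III, 14 of complex IV and 17 of complex V.

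Forebrain was dissected from mouse embryos at embryonic day 15.5, from 3 Dyrk1a<DlxCre/+> mutants and 3 wild-type controls of the same mouse line, with 3 animals per genotype per the design text. Dyrk1a encodes a protein kinase that is sensitive to gene dosage in brain development. The allele name gives Cre recombinase under Dlx control. Dlx genes mark the GABAergic lineage of the ventral forebrain, so only some of the dissected cells would have expressed Cre. The labels say neither which Dlx regulatory sequence was used, nor whether the wild-type embryos carried Cre or the conditional allele, nor how the embryos fell into litters, so p-values measure the spread between these 6 libraries.

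The respiratory chain sits in the inner mitochondrial membrane. Complex I takes electrons from NADH and complex II from succinate. Ubiquinone carries them to complex III, cytochrome c carries them on to complex IV, and complex IV passes them to oxygen. Complexes I, III and IV pump protons, and complex V, the ATP synthase, lets them flow back and makes ATP. Most subunits are encoded in the nucleus and imported, while a few membrane subunits of complexes I, III, IV and V are encoded by mitochondrial DNA. NRF1, GABPA, YY1 and the oestrogen-related receptors are transcription factors known to bind promoters of nuclear respiratory genes.

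The promoters of the genes were searched for short forms of the letters those factors are known to bind. RefSeq windows of GRCm38.p6, each with 250 bases before and 50 after a gene's start, were matched for 68 of the 87 genes, 66 of them tested. Each motif was searched on both strands. The full NRF1 letters, GC followed by GCATGCGC, were found in 5 of the 66 genes (7.58%), against 2.03% of the 12593 tested genes with a window. They were in Atp5g2, Atp5k, Cox6a1, Ndufa11 and Uqcrc1, shown first below because they hold the full letters. The shorter form GCATGCGC, which the full letters contain, was in 10 (15.2%) against 5.38%. Those 10 include the 5 genes with the full letters, and also Ndufa6. The letters CCGGAAGT, bound by GABPA and other ETS factors, were in 5 (7.58%) against 7.85%, among them Cox8a, the gene with the smallest p-value of the 81. The YY1 letters AAGATGGC were in 10 (15.2%) against 4.65%. They were in 7 of the 32 tested complex I genes with a window (21.9%) and in 3 of the 15 of complex V (20%). In 8 of the 10 the YY1 letters began 23 to 39 bases after the annotated start. These letters hold an ATG, and whether a match lies on a start codon was not tested. The letters TCAAGGTCA of the oestrogen-related receptors were in Atp5g3 and Sdhd (3.03%), against 0.334%. The 30-base stretches read 5′ to 3′ on the gene's own strand, with the matched letters in capitals. In Cox8a the capitals are the ETS letters of the opposite strand, and in Ndufs7 and Atp5j they are the YY1 letters. A match describes the letters of the window and does not show that a factor binds there.
Atp5g2, chr15:102671070-102671099, minus strand: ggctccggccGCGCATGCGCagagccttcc
Atp5k, chr5:108434430-108434459, minus strand: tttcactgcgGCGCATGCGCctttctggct
Cox6a1, chr5:115349101-115349130, minus strand: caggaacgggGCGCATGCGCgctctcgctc
Ndufa11, chr17:56717692-56717721, plus strand: cctgcactgcGCGCATGCGCgcacgccttg
Uqcrc1, chr9:108936668-108936697, plus strand: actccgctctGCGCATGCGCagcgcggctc
Ndufa6, chr15:82354356-82354385, minus strand: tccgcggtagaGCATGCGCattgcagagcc
Cox8a, chr19:7217604-7217633, minus strand: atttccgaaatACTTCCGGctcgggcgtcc
Ndufs7, chr10:80249462-80249491, plus strand: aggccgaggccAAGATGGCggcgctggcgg
Atp5j, chr16:84835046-84835075, minus strand: aaagtgtaggaAAGATGGCggagtcttagc

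No respiratory chain gene passed the test between mutant and wild-type forebrains. The quasi-likelihood test of edgeR, adjusted by the Benjamini-Hochberg method, called 0 of the 81 tested members at a threshold of 0.05, and it called 0 of all 19616 tested genes (0%). At an unadjusted p under 0.05 it passed 7 members (8.64%), against 376 of all tested genes (1.92%). All 7 had higher values in mutant libraries. Over all tested genes 1.19% passed on the higher side and 0.729% on the lower side. DESeq2 and limma-voom also called 0 genes, with 261 genes (1.33%) and 393 genes (2%) at an unadjusted p under 0.05, among them 6 and 4 members. The count of 7 members rested on single libraries. It was 0 without wild-type replicate 1, 0 without wild-type replicate 2, 34 without wild-type replicate 3 and 4 without mutant replicate 3. The share of all tested genes at that p moved as well, to 0.902%, 1.59%, 5.33% and 3.44% in the same order.

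Most members nevertheless had small positive differences. The log2 fold change, mutant over wild type, was above 0 in 77 of the 81 (95.1%), against 9324 of the 19616 tested genes (47.5%). Its median was 0.14, with a range between -0.36 and 0.38, against a median of -0.01 over all tested genes. The median was 0.07 without wild-type replicate 2, 0.08 without mutant replicate 2 and 0.24 without wild-type replicate 3. In the same order 67, 67 and 77 of the 81 members were above 0. The 4 members below 0 were Ndufa4l2, Sdha, Cox4i2 and Cox6b2, and 3 of these 4 are isoforms at low levels. The 95% interval of the difference lay within 25% of no change for 20 members and within 50% for 69. A p-value that misses the threshold does not show equal levels. In tissue libraries a change in the number of cells of a type and a change in RNA per cell cannot be told apart.

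**Figure D1:**
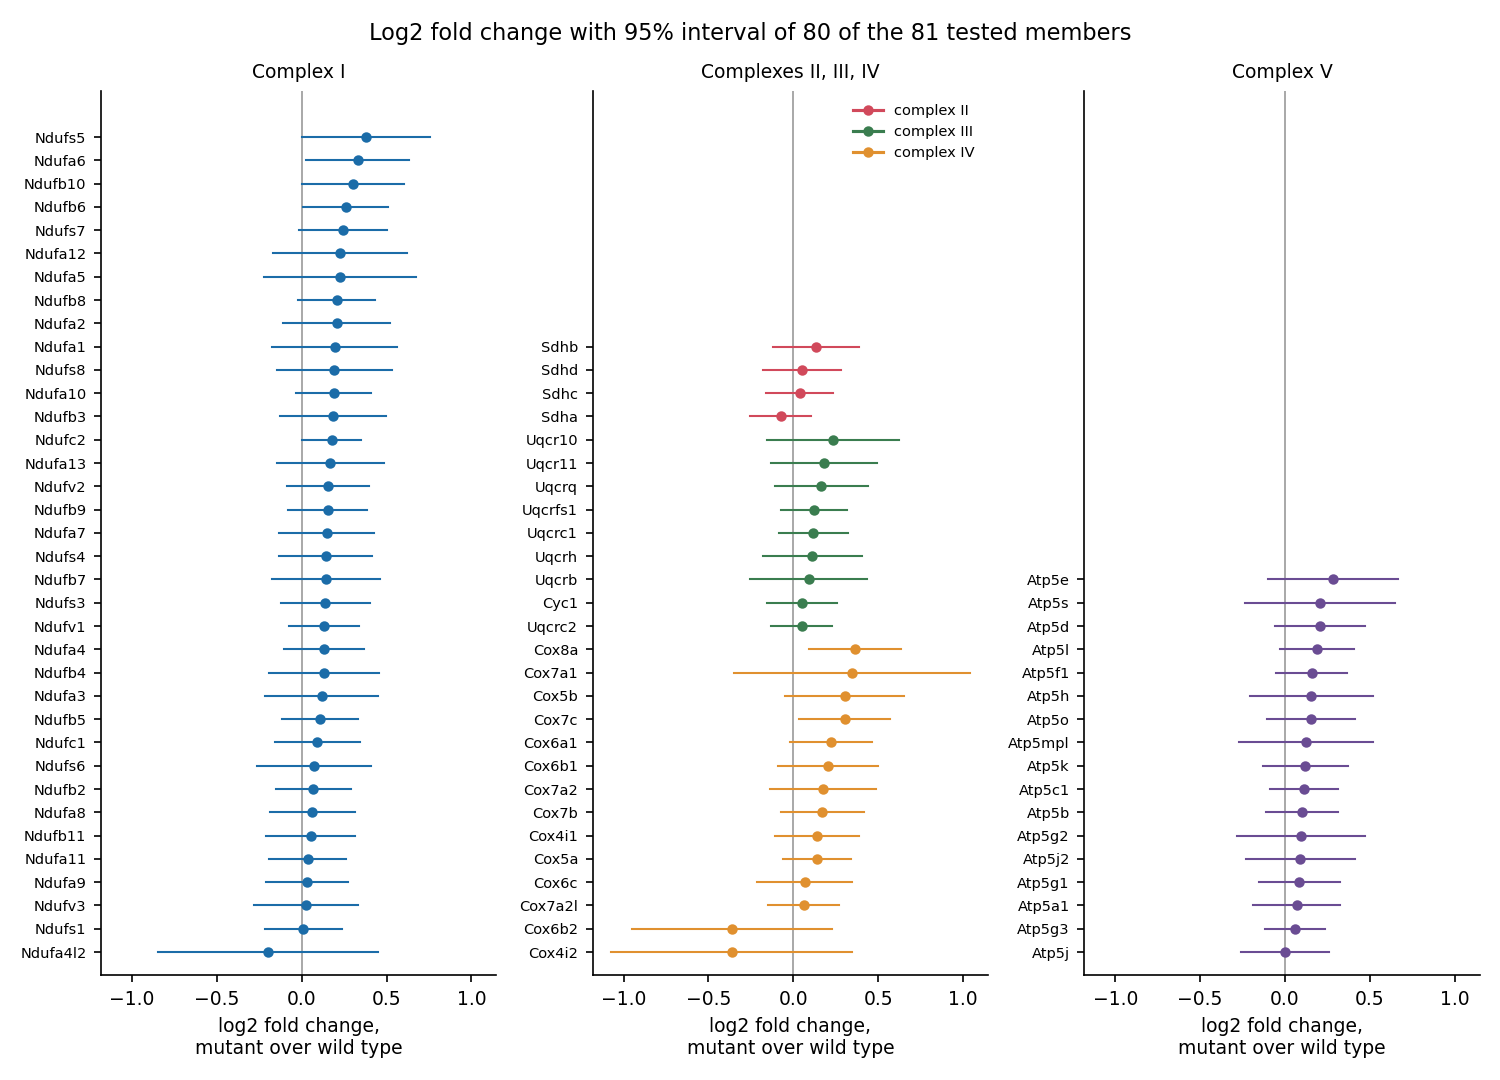
Log2 fold change, mutant over wild type (horizontal axis), with its 95% interval, for 80 of the 81 tested members, grouped by complex and ordered by value. Points lie left of 0 for Ndufa4l2, Sdha, Cox4i2 and Cox6b2, and most intervals cross 0.

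The medians of the 5 complexes lay between 0.04 and 0.17. The median log2 fold change was 0.14 in complex I (36 of 37 members above 0), 0.04 in complex II (3 of 4), 0.12 in complex III (9 of 9), 0.17 in complex IV (12 of 14) and 0.12 in complex V (17 of 17). Without wild-type replicate 3 the medians were 0.28, 0.09, 0.24, 0.24 and 0.23 in that order, and without wild-type replicate 2 they were 0.08, -0.02, 0.06, 0.12 and 0.05. The 7 catalytic core subunits of complex I had a median of 0.14 and its other members 0.15. The 5 subunits of the catalytic F1 head of complex V had 0.11 and its other members 0.12. No test between complexes was made.

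Complex I held 5 of the 7 members with an unadjusted p under 0.05, out of its 37 tested members, and complex IV held 2 out of 14. All 5 of complex I encode accessory subunits, which surround the catalytic core. Of the 37 tested members, 30 lay outside that core. Ndufa6 (chr15:82350140-82354322, GRCm38, minus strand) encodes a subunit of the LYR family that holds the acyl carrier protein in the complex. It had 34.7, 42.5 and 35.0 CPM in mutant replicates 1 to 3, against 26.0, 28.5 and 34.7 CPM in wild-type replicates 1 to 3. All 3 mutant libraries lay above the wild-type ones, but mutant replicate 1 and wild-type replicate 3 were equal at the printed precision. The log2 fold change was 0.33 ± 0.13 (SE, n = 3 each), with an unadjusted p of 0.0362 and an adjusted p of 0.9999 in edgeR's test. CPM is the number of reads scaled to a common library total by TMM, a method that matches libraries on the bulk of their genes.

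Ndufc2 (chr7:97400003-97407802, plus strand) encodes an accessory subunit of the membrane arm, the part of complex I that pumps protons. It had 68.0, 67.1 and 70.1 CPM in mutant libraries, against 61.8, 59.0 and 60.8 CPM in wild-type libraries. The groups were apart, and the SD of its log2 CPM within groups, 0.033, was the lowest of the 81 members. Its log2 fold change was 0.18 ± 0.08 (unadjusted p = 0.0477 in edgeR's test). Ndufb10, another membrane-arm subunit, had 31.0, 40.1 and 30.2 CPM in mutant libraries, against 25.1, 26.8 and 30.2 CPM in wild-type libraries. Mutant replicate 2 was the high library there, and the other mutant libraries were at or near the level of wild-type replicate 3. For Ndufb10 the log2 fold change was 0.30 ± 0.13 (unadjusted p = 0.0498 in edgeR's test).

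Ndufb6, also of the membrane arm, had 34.3, 30.2 and 33.2 CPM in mutant libraries and 24.4, 26.9 and 30.4 CPM in wild-type libraries. Mutant replicate 2 lay just below wild-type replicate 3, so the groups overlapped. The log2 fold change was 0.26 ± 0.11 (unadjusted p = 0.0449 in edgeR's test). Ndufs5, named after its values were seen, encodes an accessory subunit that faces the intermembrane space. It had 19.1, 25.4 and 21.1 CPM in mutant libraries and 13.8, 16.2 and 20.3 CPM in wild-type libraries, with the largest log2 fold change of the 81 at 0.38 ± 0.17 (unadjusted p = 0.0483 in edgeR's test). The groups overlapped here too, since mutant replicate 1 lay below wild-type replicate 3.

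The catalytic subunits Ndufv1 and Ndufs1 of complex I had smaller differences. Ndufv1, which binds NADH and the flavin, had 92.5, 104 and 93.8 CPM in mutant libraries and 89.3, 81.8 and 93.5 CPM in wild-type libraries. Ndufs1, the largest iron-sulphur subunit, had 95.9, 89.1 and 105 CPM in mutant libraries and 99.8, 86.6 and 102 CPM in wild-type libraries. The groups overlapped for Ndufs1, and its log2 fold change was 0.01 ± 0.10, or -0.060 without wild-type replicate 2. For Ndufv1 the overlap was slight, with mutant replicate 1 below wild-type replicate 3, and its log2 fold change was 0.13 ± 0.09. Ndufs8, an iron-sulphur subunit near the ubiquinone site, averaged 33.5 ± 4.42 CPM in mutant libraries and 29.2 ± 5.31 CPM in wild-type libraries (SD, n = 3 each).

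Complex II, succinate dehydrogenase, also works in the tricarboxylic acid cycle, and all its subunits are nuclear encoded. Sdha, the flavoprotein that oxidises succinate (chr13:74322254-74350280, minus strand), had 136, 142 and 137 CPM in mutant libraries and 143, 141 and 153 CPM in wild-type libraries. Mutant replicate 2 lay just above wild-type replicate 2, and the other mutant libraries lay below all wild-type ones. For Sdha the log2 fold change was -0.07 ± 0.08, with a 95% interval between -0.25 and 0.10. Sdhb, the iron-sulphur subunit, had 89.0, 108 and 95.6 CPM in mutant libraries and 90.1, 78.1 and 97.8 CPM in wild-type libraries, a log2 fold change of 0.14 ± 0.11. Mutant replicate 2 was high and wild-type replicate 2 was low. The membrane anchors Sdhc and Sdhd had log2 fold changes of 0.04 ± 0.09 and 0.05 ± 0.10, which turned to -0.024 and -0.025 without wild-type replicate 2.

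In complex III all 9 members had values above 0, between 0.05 and 0.23, and none had a p under 0.05. Uqcrfs1, the Rieske iron-sulphur protein, had 61.7, 56.9 and 62.7 CPM in mutant libraries and 57.2, 52.5 and 57.0 CPM in wild-type libraries, a log2 fold change of 0.12 ± 0.08 (unadjusted p = 0.187 in edgeR's test, the smallest of the complex). Mutant replicate 2 lay among the wild-type libraries and the other mutant libraries lay above them. Uqcrc1, a core protein of the matrix side, had 132, 143 and 131 CPM in mutant libraries and 127, 115 and 132 CPM in wild-type libraries, and its log2 fold change was 0.12 ± 0.09. Cyc1, cytochrome c1, which hands electrons to cytochrome c, had 65.9, 71.2 and 70.1 CPM in mutant libraries and 65.1, 62.0 and 72.7 CPM in wild-type libraries. The highest Cyc1 value was a wild-type one, and the log2 fold change was 0.05 ± 0.09, or -0.13 with the GC and length trend removed.

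Complex IV held the member with the smallest p-value. Cox8a, the widely expressed form of a small membrane subunit (chr19:7215153-7217616, minus strand), had 77.4, 89.7 and 84.0 CPM in mutant libraries and 58.7, 60.1 and 76.5 CPM in wild-type libraries. The groups were apart, with mutant replicate 1 next to wild-type replicate 3. The log2 fold change was 0.36 ± 0.12, with a 95% interval between 0.09 and 0.63. Its unadjusted p was 0.0144 and its adjusted p 0.9999 in edgeR's test. The two-sided exact permutation test of the CPM values gave p = 0.1, the smallest that the 20 assignments of 6 libraries allow.

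Cox7c, another small membrane subunit of complex IV, had 33.8, 40.6 and 37.9 CPM in mutant libraries and 28.6, 27.8 and 34.6 CPM in wild-type libraries. Wild-type replicate 3 lay above mutant replicate 1. For Cox7c the log2 fold change was 0.30 ± 0.12 (unadjusted p = 0.0312 in edgeR's test). Cox5a, a matrix-side subunit, had 44.0, 45.0 and 43.2 CPM in mutant libraries and 36.9, 41.7 and 41.6 CPM in wild-type libraries. These groups were apart, but by a small margin, and the log2 fold change was 0.14 ± 0.09. Cox4i1, the largest nuclear-encoded subunit, had 181, 217 and 188 CPM in mutant libraries and 177, 159 and 195 CPM in wild-type libraries, which overlapped at a log2 fold change of 0.14 ± 0.11.

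In complex V all 17 values were at or above 0, between 0.00 (Atp5j) and 0.28 (Atp5e). Atp5b, the beta subunit that makes ATP, had 805, 850 and 868 CPM in mutant libraries and 795, 701 and 856 CPM in wild-type libraries. Atp5a1, the alpha subunit, had 626, 702 and 727 CPM in mutant libraries and 691, 554 and 715 CPM in wild-type libraries. Wild-type replicate 2 was the low library for both genes and the groups overlapped, with log2 fold changes of 0.10 ± 0.09 for Atp5b and 0.07 ± 0.11 for Atp5a1. The value of Atp5a1 was -0.038 without wild-type replicate 2. Atp5c1, the gamma subunit that turns inside the F1 head, averaged 157 ± 9.01 CPM in mutant libraries and 145 ± 8.51 CPM in wild-type libraries. Atp5l, the g subunit of the membrane part, had the smallest p of the complex (0.0819 in edgeR's test, unadjusted) at a log2 fold change of 0.19 ± 0.10, but 84.9% of its 50-base stretches also occur in other genes.

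**Figure D2:**
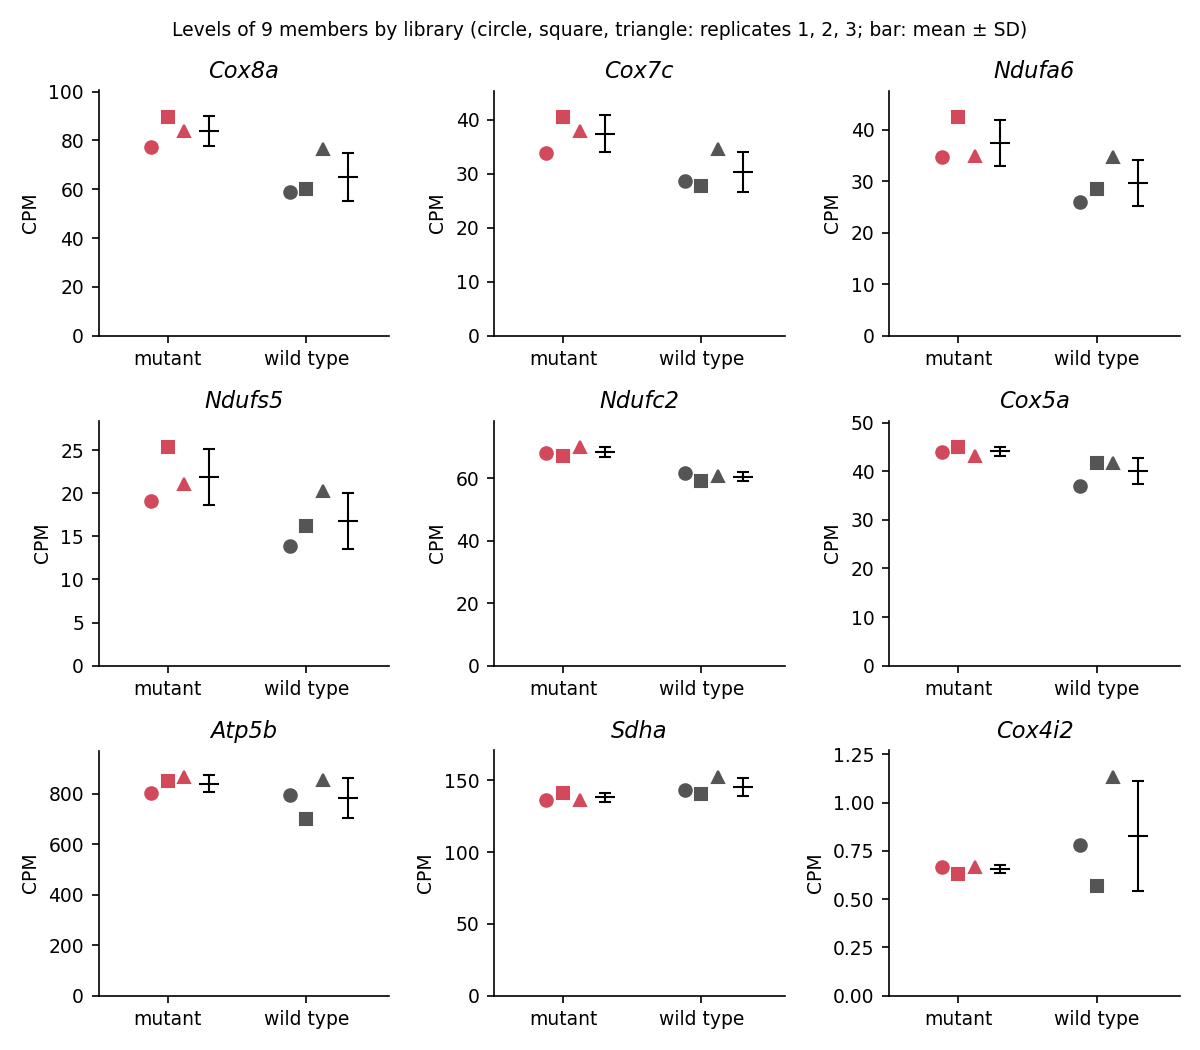
CPM (vertical axis, from 0) of 9 members in each library, with mutant libraries left of wild-type ones, circles, squares and triangles for replicates 1, 2 and 3, and bars for the mean ± SD. Cox8a, Ndufa6, Ndufc2 and Cox5a have all mutant libraries above the wild-type ones, while the groups overlap for Cox7c, Ndufs5, Atp5b, Sdha and Cox4i2.

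In 7 members all 3 mutant libraries lay above all 3 wild-type ones: Ndufa6, Ndufa10, Ndufb8, Ndufb10, Ndufc2, Cox5a and Cox8a. In 0 members they all lay below. Over all tested genes 3.19% had all mutant libraries above and 3.7% all below, 6.89% together, against 8.64% of the members. Ndufa10, an accessory subunit related to nucleoside kinases, had 55.9, 63.6 and 55.8 CPM in mutant libraries and 49.3, 48.8 and 55.7 CPM in wild-type libraries. Ndufb8, of the membrane arm, had 56.1, 63.3 and 57.3 CPM in mutant libraries and 51.9, 45.7 and 55.5 CPM in wild-type libraries. In both genes wild-type replicate 3 lay next to the lowest mutant library, and the log2 fold changes were 0.19 ± 0.10 and 0.21 ± 0.10.

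The libraries of each group did not hold one level of the members. In each library the deviation of every member from its wild-type mean was taken on the log2 CPM scale. The median over the 81 members was 0.04, 0.24 and 0.14 in mutant replicates 1 to 3, against -0.05, -0.12 and 0.17 in wild-type replicates 1 to 3. Mutant replicate 2 was highest, and wild-type replicate 3 lay above mutant replicates 1 and 3, so the groups overlapped. Complex IV had 0.03, 0.32 and 0.14 in mutant libraries and -0.07, -0.12 and 0.21 in wild-type libraries. Complex II had -0.03, 0.05 and 0.09 in mutant libraries and 0.04, -0.14 and 0.09 in wild-type libraries. Over all tested genes the medians of the 6 libraries lay within 0.01 of 0.

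**Figure D3:**
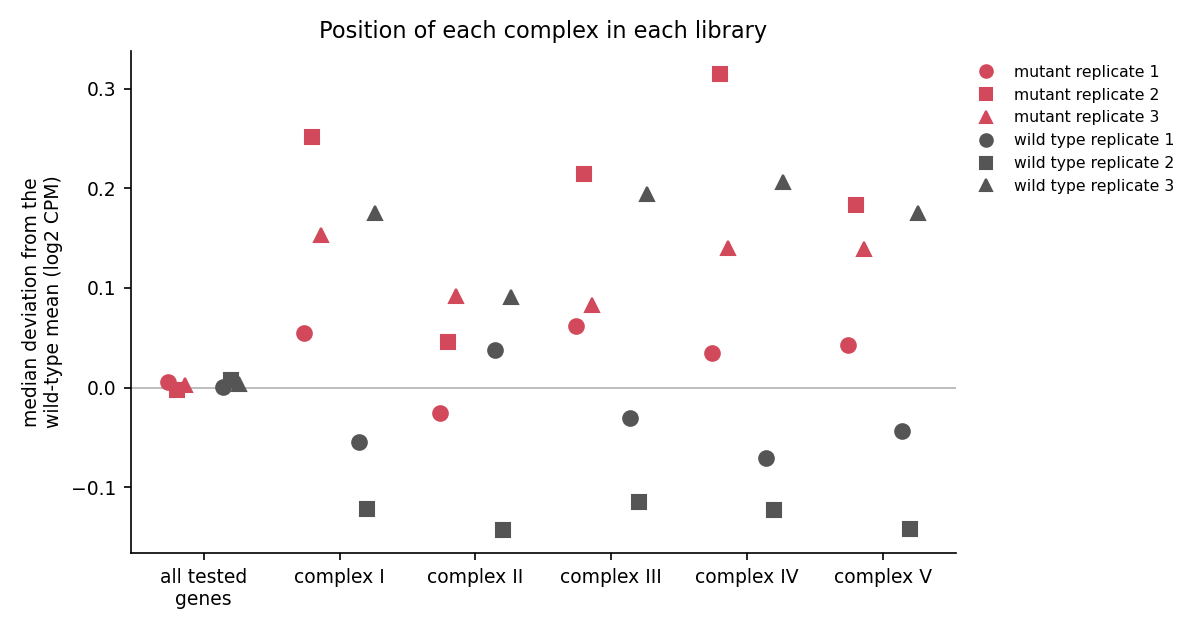
Median deviation from the wild-type mean (log2 CPM, vertical axis) of all tested genes and of complexes I to V, 1 point per library, with mutant libraries left of wild-type ones. Mutant replicate 2 is highest in complexes I, III, IV and V, wild-type replicate 2 is lowest in every complex, and wild-type replicate 3 lies above mutant replicate 1 in every complex.

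Short genes in general held nearly the same pattern over the libraries. In the 512 tested protein-coding genes of at most 745 bases, the median length of the members, the median deviations were 0.05, 0.25 and 0.12 in mutant libraries and -0.08, -0.07 and 0.17 in wild-type libraries. The 40 members above that length had 0.04, 0.18 and 0.13 in mutant libraries and -0.02, -0.13 and 0.13 in wild-type libraries, and the 14277 longer protein-coding genes stayed within 0.02 of 0 in all libraries. None of these differences between gene sets was tested.

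Among the wild-type libraries the members were highest in replicate 3. Its log2 CPM was above the mean of wild-type replicates 1 and 2 in 79 of the 81 members, by a median of 0.26. Mutant replicate 3 was above the mean of mutant replicates 1 and 2 in 38 members, with a median difference of -0.02. Over all tested genes the medians of both differences were 0.01. Between replicates 1 and 2 of the groups the median member was 0.22 higher in mutant libraries, and between the replicate 3 libraries it was 0.03 lower in the mutant one (-0.03). The summed level of the members was 5931, 6616 and 6349 CPM in mutant libraries and 5703, 5255 and 6444 CPM in wild-type libraries, and the highest wild-type sum exceeded 2 of the mutant sums.

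Total counts were between 25360030 and 28339650 in mutant libraries and between 24646616 and 38315004 in wild-type libraries. The first principal component (37.4% of the variance) separated both replicate 3 libraries from the other 4, and the second (26.4%) set mutant replicate 2 apart. Markers of progenitors summed to between 1341 and 2075 CPM in mutant libraries and between 1263 and 1965 CPM in wild-type libraries, with replicate 3 highest in both groups. Markers of neurons summed to between 5086 and 5874 CPM in mutant libraries and between 5037 and 5943 CPM in wild-type libraries, with replicate 3 lowest in both groups. All 7 listed markers of each were detected. Markers of the GABAergic lineage summed to between 345 and 360 CPM in mutant libraries and between 312 and 372 CPM in wild-type libraries. The red cell marker Hbb-y had 322 CPM in mutant replicate 3 and 321 CPM in wild-type replicate 3. It had between 27.8 and 42.5 CPM in the other libraries, while the red cell marker Hbb-bs was lowest in replicate 3 of both groups. Choroid plexus markers summed to 407 CPM in mutant replicate 2, and to between 253 and 333 CPM in the other libraries. The part of these makeup differences in the members' values was not tested. Dyrk1a itself averaged 175 ± 14.6 CPM in mutant libraries and 177 ± 7.58 CPM in wild-type libraries (SD, n = 3 each). Its log2 fold change was -0.02 ± 0.09, so its whole-gene count does not check the genotype labels.

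Members with short transcripts had the larger differences. The members' median transcript length was 745 bases, against 2475 bases over all tested genes. Across the 81 members the log2 fold change had a Spearman correlation of -0.35 with length and of -0.01 with GC content, and across 19521 tested genes these were -0.14 and 0.33. The points share the 6 libraries and genes are not independent replicates. The 41 members of at most 745 bases had a median of 0.15 and held all 7 with an unadjusted p under 0.05, while the 40 longer members had a median of 0.12, and 38 of them were above 0. Short genes in general had values above 0 more often than long ones, a difference that was not tested. Of the 512 tested protein-coding genes of at most 745 bases, members included, 33 passed an unadjusted p of 0.05 on the higher side and 3 on the lower side. Of these 512, 77.0% were above 0 with a median of 0.12, against 50.7% and a median of 0.00 in the 14277 longer ones. With the GC and length trend of each library removed, 70 of the 81 members were above 0 and their median was 0.10. That fit took the length of each gene's longest transcript, so it did not remove the trend with median coding length itself. The part of length in the members' values was not tested beyond this fit.

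**Figure D4:**
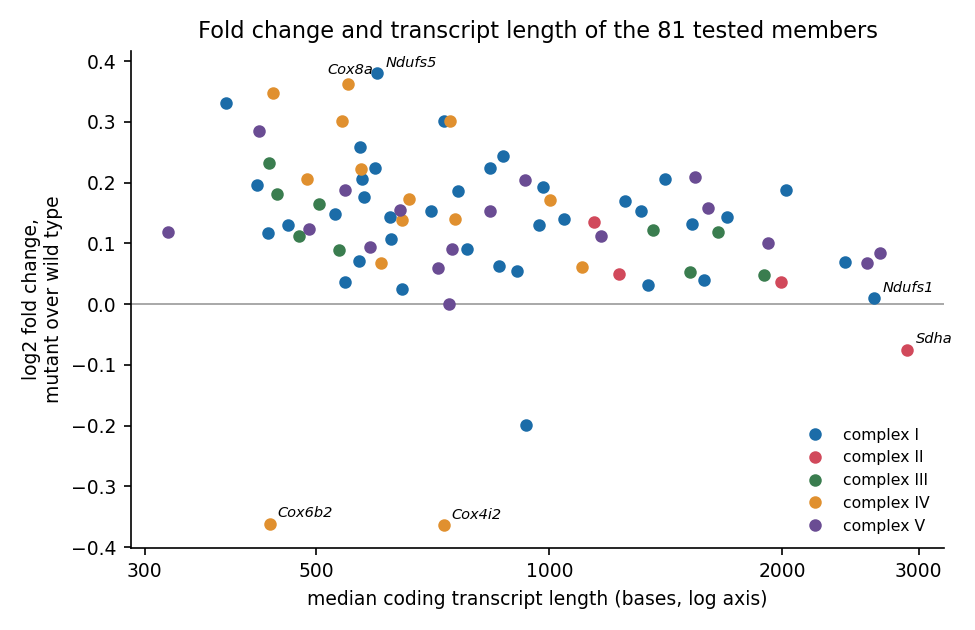
Log2 fold change, mutant over wild type (vertical axis), against median coding transcript length in bases (horizontal log axis), for the 81 tested members coloured by complex. All values above 0.25 belong to members of at most 745 bases, and at the long end Ndufs1 has 0.01 and Sdha -0.07.

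The levels of the members differed far more than the groups did. The order of the levels depended on the length used. Per kb of median coding transcript, Atp5b was highest at 439 ± 17.0 CPM per kb in mutant libraries and 409 ± 40.7 in wild-type libraries (SD, n = 3 each). Atp5a1 followed at 266 ± 20.5 CPM per kb in mutant libraries and 254 ± 33.8 in wild-type libraries. Cox4i1 was the highest of complex IV, at 258 ± 25.1 CPM per kb in mutant libraries and 235 ± 24.1 in wild-type libraries. In complex III the hinge protein gene Uqcrh was highest, in complex II Sdhb, and among the Nduf symbols Ndufa4, whose protein is now placed in complex IV. With the union of exons as length the highest genes were instead Atp5a1 in complex V, Cox6b1 in complex IV, Uqcr11 in complex III, Sdhd in complex II and Ndufc2 among the Nduf symbols. By median coding transcript, the median level over both groups was 44.7 CPM per kb in complex I, 46.5 in complex II, 65.5 in complex III, 84.7 in complex IV and 96.4 in complex V.

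Where a subunit has isoforms, most transcripts came from the widely expressed form or forms. Cox4i2, a hypoxia-linked form of subunit 4, had 0.668, 0.630 and 0.664 CPM in mutant libraries and 0.779, 0.567 and 1.13 CPM in wild-type libraries. Wild-type replicate 3 alone was high, and the log2 fold change was -0.36 ± 0.31. Per kb, Cox4i2 made up 0.348% ± 0.0427 of the subunit 4 transcripts in mutant libraries and 0.473% ± 0.116 in wild-type libraries, or 0.660% and 0.895% with the union of exons as length. Cox6b2, a form known from testis, was 1.49% ± 0.439 of subunit 6B in mutant libraries and 2.14% ± 0.315 in wild-type libraries (0.856% and 1.23% by union of exons), and its log2 fold change was -0.36 ± 0.26. Ndufa4l2, a hypoxia-linked relative of Ndufa4, had 1.79, 1.65 and 1.14 CPM in mutant libraries and 1.38, 2.43 and 1.53 CPM in wild-type libraries, which overlapped. Its exons overlap those of Shmt2 on the opposite strand, so some of its counts may belong there.

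The muscle forms were at or near 0. Cox6a2 and Cox8b had 0 counts in all 6 libraries, and Cox7a1, the muscle form of subunit 7A, had 0.598, 0.827 and 0.590 CPM in mutant libraries and 0.599, 0.567 and 0.422 CPM in wild-type libraries. Markers of skeletal and heart muscle summed to between 4.24 and 6.69 CPM in mutant libraries and between 4.11 and 5.43 CPM in wild-type libraries. Subunit 7A was split between Cox7a2, at 57.7% ± 1.78 in mutant and 55.7% ± 2.59 in wild-type libraries, and Cox7a2l, which joins complexes III and IV into supercomplexes, at 41.7% ± 1.86 in mutant and 43.8% ± 2.44 in wild-type libraries. The other untested members, Cox7b2, Cox6c2, Ndufa11b and Ndufs6b, had at most 5 counts in any library.

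The proton-carrying c subunit of ATP synthase is encoded by 3 genes whose mature proteins are identical. Atp5g3 gave 64.9% ± 3.44 of their transcripts per kb in mutant libraries and 65.6% ± 3.54 in wild-type libraries. Atp5g2 gave 25.3% ± 3.47 in mutant and 24.8% ± 3.20 in wild-type libraries, and Atp5g1 gave 9.74% ± 0.332 in mutant and 9.64% ± 0.389 in wild-type libraries. By union of exons Atp5g1 gave 14.9% in mutant and 14.8% in wild-type libraries. The groups differed by less than their spread in each share. Other genes share 87.4% of the 50-base stretches of Atp5g2, so its share is uncertain.

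Counting limits touch other members too. Exons of 24 tested members overlap a gene on the opposite strand, such as Atp5j with Gabpa, Ndufa13 with Tssk6, Ndufb6 with Smim27, Cox5a with Gm26631 and Cox4i1 with Emc8, and no source used here states whether the counting used the strand. Of the members with a p under 0.05, Ndufb6 shares 34.1% of its 50-base stretches with other genes, Ndufs5 31.1% and Cox7c 27.9%. Cox8a, Ndufa6, Ndufb10 and Ndufc2 share none, nor do 33 other tested members.

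Genes that serve the same complexes were described by lists chosen for their role. Of the 46 tested assembly factors of complexes I to V, 34 were above 0 and none was called, and their median was 0.07 on the log2 scale. By complex, 11 of 14 assembly factors of complex I were above 0, with medians of 0.06 for complex I, 0.10 for complex II (3 of 4), 0.07 for complex III (3 of 6), 0.07 for complex IV (15 of 19) and 0.12 for complex V (2 of 3). Sdhaf4, an assembly factor of complex II that acts on Sdha, averaged 14.0 ± 0.955 CPM in mutant libraries and 10.9 ± 1.22 CPM in wild-type libraries, a log2 fold change of 0.35 ± 0.13 (unadjusted p = 0.0239 in edgeR's test). Coa6, which serves the copper site of complex IV, had 0.35 ± 0.14 (unadjusted p = 0.0338 in edgeR's test). Neither passed the adjusted test. Sdha, the partner of Sdhaf4, had a value below 0.

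The subunits encoded by mitochondrial DNA had differences of both signs. Of the 11 tested, 5 were above 0 and the median log2 fold change was -0.08. Their median deviations were 0.15, -0.28 and 0.00 in mutant libraries and -0.21, 0.36 and -0.13 in wild-type libraries, so mutant replicate 2, the highest for the nuclear members, was the lowest here. mt-Co1, the catalytic subunit of complex IV, averaged 1742 ± 295 CPM in mutant libraries and 1713 ± 156 CPM in wild-type libraries. mt-Co2, of the same complex, had at most 3 counts in any library, and mt-Atp6 had at most 40, so the counts of this genome are uneven between genes. mt-Atp6, mt-Nd3 and mt-Nd4l, which had at most 86 counts in any library, were among the 5 genes above 0. The others above 0, mt-Co1 and mt-Atp8, had log2 fold changes of 0.02 ± 0.13 and 0.11 ± 0.61. The 6 genes below 0 were mt-Cytb, mt-Nd1, mt-Nd2, mt-Nd4, mt-Nd5 and mt-Nd6. mt-Nd6 had the smallest p of the list (0.0775 in edgeR's test, unadjusted) at -0.90 ± 0.45. Its highest level was 16.6 CPM in wild-type replicate 2. mt-Cytb had -0.19 ± 0.16 and mt-Nd1 had -0.08 ± 0.20. No test of nuclear against mitochondrial subunits was made.

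Other mitochondrial genes were described in the same way, without a test against the members. In the tricarboxylic acid cycle 6 of 13 genes were above 0 (median -0.01 on the log2 scale), and citrate synthase (Cs) averaged 194 ± 6.26 CPM in mutant libraries and 201 ± 9.98 CPM in wild-type libraries. Idh3b, of the isocitrate dehydrogenase, had 0.16 ± 0.09, and Dld, shared by several dehydrogenases, had -0.15 ± 0.10. The median transcript length was 2492 bases in that list and 1423 bases in the list of membrane and matrix proteins, against 745 bases in the members. Of 8 genes of mitochondrial membrane and matrix proteins 6 were above 0 (median 0.08), among them the import channel gene Timm23 at 0.25 ± 0.10 (unadjusted p = 0.0355 in edgeR's test) and the ATP carrier gene Slc25a4 at 0.14 ± 0.07. Cycs, cytochrome c, had 0.18 ± 0.11, and Ndufab1, the acyl carrier protein of complex I, had -0.06 ± 0.10.

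Of 13 regulators of respiratory genes 7 were above 0 (median 0.01 on the log2 scale), and none was under an unadjusted p of 0.05. Nrf1 averaged 97.0 ± 7.94 CPM in mutant libraries and 97.0 ± 10.1 CPM in wild-type libraries. Gabpa averaged 66.9 ± 5.71 CPM in mutant libraries and 68.8 ± 1.82 CPM in wild-type libraries. Ppargc1a, a coactivator of mitochondrial genes, averaged 11.9 ± 1.74 CPM in mutant libraries and 12.1 ± 1.56 CPM in wild-type libraries. The groups overlapped for all 3. Esrra, an oestrogen-related receptor, had the smallest p of the list, 0.253 unadjusted in edgeR's test, at 0.14 ± 0.11.

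**Figure D5:**
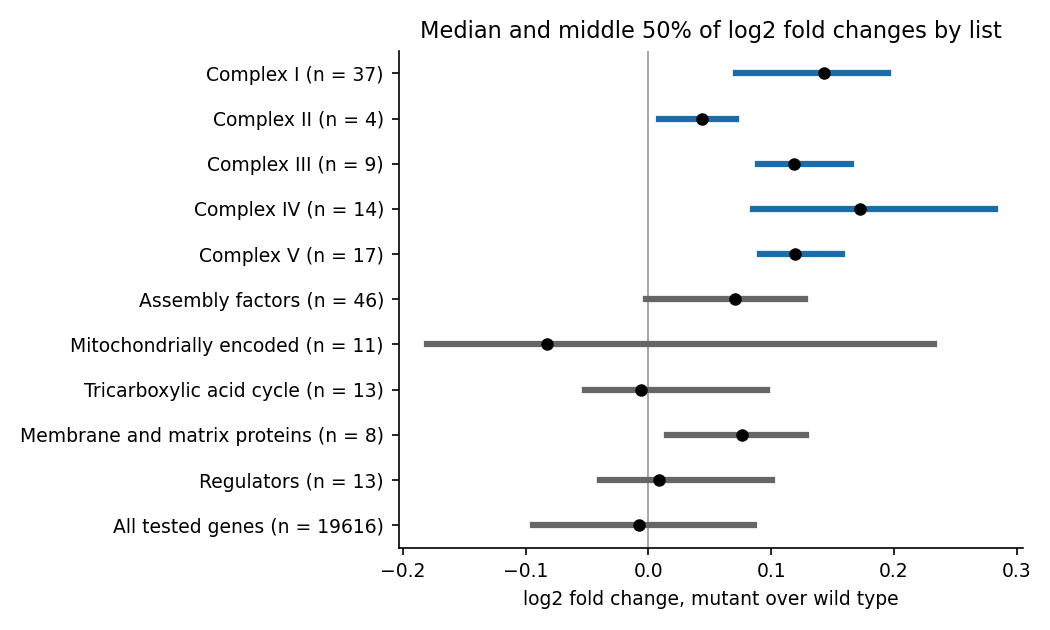
Median (point) and middle 50% (bar) of the log2 fold changes, mutant over wild type, of the 5 complexes, of 5 lists of related genes and of all tested genes, with the number of tested genes. Complex IV has the highest median at 0.17 and the mitochondrially encoded subunits the lowest at -0.08.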

How the data were processed

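RNA of 3 mutant and 3 wild-type forebrains was sequenced single-end from TruSeq Stranded Total RNA libraries with Ribo-Zero Gold, per the labels' protocols, which also call the molecule polyA RNA. Per the submitters' processing notes, HISAT2, SAMtools 1.9 and HTSeq 0.9.1 were used on GRCm38. The authors deposited raw counts of reads for each gene, with no normalization, and 1 column held each library. Symbols (32888 of 33084 identifiers), exons, lengths and GC content came from GENCODE M21 on GRCm38. Lengths are the median over a gene's coding transcripts, except in the GC and length correction, which used the longest transcript. Genes were kept by filterByExpr (count minimum 10, minimum total 15), scaled by TMM and tested with edgeR 4.0.16 (quasi-likelihood F test, robust, Benjamini-Hochberg over all 19616 genes, R 4.3.3). The tests were checked on simulated data with changes larger than those of any member, so the check does not cover differences of the members' size. Alternatives were DESeq2 1.42.0, limma-voom (limma 3.58.1), other scaling, no filter, replicate terms, GC and length correction and leaving out each library. A prior count of 2 was used for log2 CPM.

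The members and lists were chosen with earlier results of these data known. Members were named by p within each complex, by level per kb, as core subunits, as isoforms, or where the groups did not overlap, and the values of 1 tested member are not reported here. Standard errors were worked back from the log2 fold change and the F statistic of the edgeR fit, and the 95% intervals were computed from them.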

Additional observations from a re-analysis of the deposited data

How the results depend on the processing

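No alternative called a member. All alternatives called 0 genes except that with only replicates 1 and 2, which called 3 genes, none a member (Hist1h2ag, Pisd-ps1 and Tmem181b-ps). The count of members at an unadjusted p under 0.05 was 7, but 4 in limma-voom, 12 with a term for the replicate 3 libraries (4.31% of all tested genes), 38 with only replicates 1 and 2 (7.86%), and between 0 and 34 with 1 library left out (0.902% to 5.33%). The median of complex I was 0.28 with only replicates 1 and 2 and between 0.080 and 0.28 with 1 library left out. Of 616 values of 44 named members over the alternatives, 603 kept their direction. Some of the 44 were named for a small p or for groups apart in these same data, so that share cannot stand for all members. Among all 81 members the main fit had 77 above 0. The fewest in any alternative was 67, reached when either replicate 2 library was dropped. Removal of the GC and length trend left 70. Ndufs1 turned to -0.0068 with only replicates 1 and 2, and with the GC and length trend removed Atp5g2 turned to -0.18, Cyc1 to -0.13 and Cox6a1 to -0.026. With 1 library left out, values lay between -0.038 and 0.15 for Atp5a1, -0.025 and 0.26 for Atp5g2, -0.35 and 0.073 for Ndufa4l2, -0.060 and 0.066 for Ndufs1, -0.024 and 0.075 for Sdhc, and -0.025 and 0.11 for Sdhd. The causes were not tested. The deviations of same-numbered mutant and wild-type libraries had correlations of 0.241, 0.0711 and 0.355. Those of differently numbered libraries lay between -0.466 and 0.348. These few values cannot decide whether the numbers pair the samples. With the replicate block 0 genes were called, 765 genes and 10 members had an unadjusted p under 0.05, and the members' median was 0.14.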
